A study of Mus musculus with 16 samples.

Results

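RNA levels of 10 genes of insulin and insulin-like growth factor (IGF) signalling were examined in p53−/−; Myc hepatoblasts treated with sorafenib or vehicle. The 10 genes were taken by name from a count table of 40840 genes. They are the insulin receptor Insr, the IGF1 receptor Igf1r, the receptor substrates Irs1 and Irs2, and the IGF-binding protein genes Igfbp1 to Igfbp6. The hepatoblasts are a cultured mouse line, used as a model of hepatocellular carcinoma, that lacks the tumor suppressor p53 and overexpresses the oncogene Myc, and these changes are shared by every group. The 16 libraries, 4 per group, came from cells given the vehicle DMSO or the drug at 8.5 µM, each for 48 hours or for 7 days. Sorafenib is an inhibitor of several kinases, among them RAF and VEGF receptors, and is given to patients with advanced liver cancer. The design asked how the drug changed the transcriptome after a short and a long exposure, and all cells were of this 1 line. The labels do not say whether the replicates were separate cultures, so the p-values measure the spread between these libraries, which may be technical.

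Insulin, IGF1 and IGF2 act through receptor tyrosine kinases of one family. The activated receptors phosphorylate the adaptor proteins IRS1 and IRS2, which recruit phosphoinositide 3-kinase (PI3K) and so switch on AKT, which among other effects keeps FOXO transcription factors out of the nucleus. IGF-binding proteins are secreted, hold IGFs outside the cell and set how much reaches the receptor, and proteases that cut them release the IGF again. In the liver, IGF2 is a fetal product that is often expressed again in hepatocellular carcinoma.

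Sorafenib raised the transcripts of all 4 receptor and substrate genes at 48 hours and of 3 of them at 7 days, and lowered those of 3 binding proteins at 48 hours and 4 at 7 days. Over all 20444 genes tested 26.9% were higher and 27.7% lower at 48 hours, and 28.9% and 27.9% at 7 days. Igfbp5 fell 15.3-fold at 48 hours and 96.5-fold at 7 days, while its neighbour on chromosome 1, Igfbp2, rose 2.11-fold and 1.47-fold. Insr, Igf1r and Irs1 rose by 1.16-fold to 1.58-fold. Igfbp1 had 0 counts in all 16 libraries and could not be tested, which left 9 genes with at least 10 counts in total.

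The 4 genes in the 2 close pairs of this family lie side by side in the mouse genome (GRCm39, gene models of GENCODE vM39). Igfbp2 lies on the forward strand of chromosome 1 from 72863606 to 72891634 and Igfbp5 on the reverse strand from 72897091 to 72914043, with their 3′ ends 5456 bases apart and no coding gene between them. Igfbp1 and Igfbp3 lie in the same arrangement on chromosome 11, from 7147651 to 7152546 and from 7156086 to 7164179, 3539 bases apart. The sequences before the start of Igfbp5, Igfbp2 and Igfbp4 are shown because Igfbp5 and Igfbp2 are the neighbours that moved in opposite directions and Igfbp4 is the most abundant transcript of the 10. They are the bases just before the outermost annotated start, 5′ to 3′ on the gene's strand, at chr1:72914044-72914293 (reverse strand) for Igfbp5, chr1:72863399-72863605 (forward strand) for Igfbp2 and chr11:98931814-98932063 (forward strand) for Igfbp4. Capitals mark the motif matches named after them.
Igfbp5: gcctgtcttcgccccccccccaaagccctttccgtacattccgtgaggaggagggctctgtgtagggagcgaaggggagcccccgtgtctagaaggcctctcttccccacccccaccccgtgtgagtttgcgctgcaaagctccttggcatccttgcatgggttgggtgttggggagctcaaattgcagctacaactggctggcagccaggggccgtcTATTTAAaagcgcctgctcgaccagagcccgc
Igfbp2: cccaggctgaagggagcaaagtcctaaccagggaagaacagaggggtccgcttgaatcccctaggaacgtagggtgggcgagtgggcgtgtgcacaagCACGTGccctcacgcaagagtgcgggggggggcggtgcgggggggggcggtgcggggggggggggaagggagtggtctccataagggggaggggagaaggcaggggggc
Igfbp4: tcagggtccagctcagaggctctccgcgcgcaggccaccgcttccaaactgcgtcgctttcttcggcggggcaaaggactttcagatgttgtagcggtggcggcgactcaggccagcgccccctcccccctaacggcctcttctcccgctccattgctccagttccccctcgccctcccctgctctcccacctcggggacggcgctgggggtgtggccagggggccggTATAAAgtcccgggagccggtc

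The motifs CAAAACA and GTAAACA, which FOXO factors bind, and TGATGNAAN, which the stress factor ATF4 binds, were searched on both strands of the 250 bases before the start of the canonical transcript. None of the 10 genes held any of them, against 5.98%, 2.55% and 2.91% of 19288 promoters of coding genes. At such shares a set of 10 genes could easily hold none, so the absence does not set these genes apart. Only the stretch before the annotated start was searched, so sites elsewhere near a gene would be missed. Further motifs, searched on the gene strand, were added after the sequences were seen. Igfbp5 held TATTTAA, which is a variant of the core promoter box, from 32 bases before its start, as did 2.01% of promoters. Igfbp4 held TATAAA, the classical form of that box, from 22 bases before its start, as did 7.13%. Igfbp2 held CACGTG, the E-box that MYC and its partner MAX bind, from 152 bases before the start of its canonical transcript, as did 6.64%. A match describes the sequence and does not show that a factor bound there.

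Library totals ran from 16586254 to 30828427 counts, and a normalised read count is a count divided by the library's size, scaled by TMM, relative to the mean library. The labelled cell type had the hepatoblast and liver marker Dlk1 at a mean of 32234 normalised read counts with DMSO for 48 hours and Krt19 at 2626, but Alb and Hnf4a had under 3 counts per library on average. Of the 10 liver markers, 5 had a mean of at least 100 over the 16 libraries. Afp had a mean of at most 9.45 in any group, and Epcam one of 29.4 with DMSO for 48 hours. Of 8 fibroblast and stellate cell markers, 7 had a mean of at least 100 over the 16 libraries, with Col3a1 at 70779 in that group, whereas none of 5 endothelial and 5 blood markers did, and Cdh5, Vwf, Ptprc, Adgre1 and Lyz2 had under 3 counts per library. Sorafenib also moved these lists. The summed level of the 10 liver markers was 34870 to 36229 with DMSO and 12312 to 14099 with sorafenib at 48 hours, and 18369 to 20247 and 6233 to 6505 at 7 days. Dlk1 made up most of this sum, and of 8 liver markers tested 1 was higher and 5 lower at 48 hours and 2 higher and 6 lower at 7 days, with Sox9 at means of 213 and 664 and then 350 and 904. That of the 8 fibroblast markers was 121806 to 124000 and 187317 to 202611 at 48 hours, and 115716 to 119659 and 125999 to 130800 at 7 days. The rise at 48 hours was mostly that of Acta2 (means of 4683 and 65481 at 48 hours) and Col1a1 (41939 and 81072), and of the 8 markers 4 were higher and 4 lower at 48 hours and 3 higher and 5 lower at 7 days, with Pdgfra at means of 1528 and 354 at 48 hours. Summed endothelial markers, mostly Kdr, were 57.7 to 98.01 with DMSO and 119 to 153 with sorafenib at 48 hours, and 36.8 to 61.3 and 198 to 230 at 7 days, and summed blood markers were 75.6 to 87.97 and 61.9 to 89.8 at 48 hours and 125 to 157 and 75.2 to 86.9 at 7 days, when Csf1r went from a mean of 69.7 with DMSO to 13.8 with sorafenib. In bulk RNA fewer cells of a type and less RNA per cell cannot be told apart, and the part of these shifts in the results for the 10 genes was not tested. Replicate 2 of sorafenib for 48 hours stood apart: its counts on chromosomes 15 to 19 and X were 0.605 of those expected from chromosomes 1 to 13, as the median over genes against the mean of the other 3 libraries of its group. Igfbp6, on chromosome 15, is the only gene of the 10 there, and the values of this library were the highest of their group for 6 of the 9 measured genes. On chromosomes 1 to 13 its median over genes lay 0.0909 above the other 3 on the log2 scale after scaling. Without this library the 48-hour log2 fold change was 0.57 for Irs1 (0.61 with it), 0.48 for Irs2 (0.51) and 1.04 for Igfbp2 (1.07). That of Insr was 0.24 (0.22). Counts on 2 ribosomal RNA-like loci took 0.29% to 3.04% of a library, with the highest shares in DMSO for 7 days replicate 4 and DMSO for 48 hours replicates 2 and 3.

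Of the 9 genes tested at 48 hours, 5 were higher with sorafenib and 3 lower by edgeR's quasi-likelihood test at a Benjamini-Hochberg false discovery rate (FDR) under 0.05. At 7 days 4 were higher and 4 lower. The libraries of the groups did not overlap for 8 of the 9 genes at 48 hours (48% of all genes) and for 8 at 7 days (56.8% of all genes). The median log2 fold change of the 9 genes was 0.24 at 48 hours and 0.07 at 7 days, beside −0.05 and 0.02 for all genes tested. The call itself was thus common in this data set, and the genes are described below by the size of their change.

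**Figure D1:**
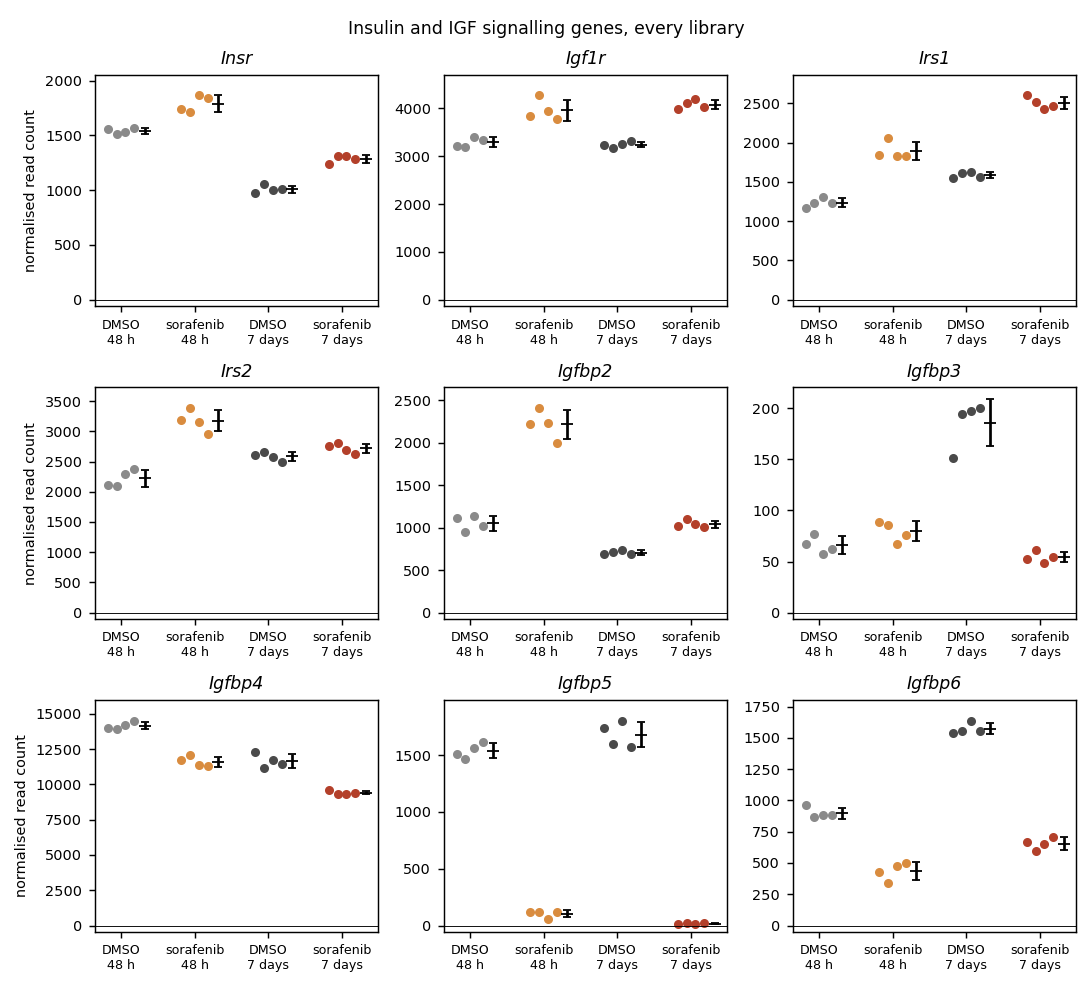
Normalised read counts (y axes, linear, from 0) of the 9 genes with counts, in each of the 4 groups (x axes). Points are the 4 libraries of a group in the order of their replicate number, and bars are the mean ± SD. Igfbp5 dropped from means of 1538 and 1679 to 104 and 16.99 with sorafenib, and Igfbp3 stood at a mean of 186 with DMSO for 7 days and at 54.4 to 79.6 in the other groups.

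Insr encodes the receptor that binds insulin and, in one of its forms, IGF2, and lies on chromosome 8 from 3172061 to 3329647. Its normalised read counts with DMSO for 48 hours were 1558, 1508, 1532 and 1563 in replicates 1 to 4, and with sorafenib 1743, 1710, 1868 and 1838. With DMSO for 7 days they were 971, 1052, 1001 and 1009, and with sorafenib 1237, 1313, 1310 and 1282. All libraries with sorafenib were above all with DMSO of the same time, and no 2 of the 4 groups overlapped. The log2 fold change was 0.22 ± 0.038 (SE, n = 4 per group, edgeR FDR 5.11e-05) at 48 hours and 0.35 ± 0.039 (FDR 1.46e-07) at 7 days. The fall between DMSO for 48 hours and DMSO for 7 days was larger than either, at −0.61 ± 0.038 (FDR 6.71e-11). The difference between the 2 drug responses, 0.13 ± 0.054, missed the threshold (edgeR FDR 0.0632), but passed it with DESeq2 (0.15, FDR 0.0206) and without any 1 of 8 libraries (0.15 to 0.18, FDR 0.0169 to 0.0495). Without replicate 2 of sorafenib for 48 hours it was 0.11 (FDR 0.0735).

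Igf1r, the receptor through which IGF1 and IGF2 signal, is on chromosome 7 from 67601518 to 67883416. Its 4 libraries given DMSO for 48 hours had 3202, 3199, 3407 and 3346 normalised read counts and those with sorafenib 3833, 4276, 3933 and 3769. At 7 days the values were 3227, 3169, 3257 and 3311 with DMSO and 3977, 4105, 4185 and 4027 with sorafenib. The DMSO groups overlapped each other and so did the sorafenib groups, whereas drug and vehicle were apart. The rise was 0.26 ± 0.038 on the log2 scale at 48 hours (edgeR FDR 5.06e-06) and 0.33 ± 0.038 at 7 days (FDR 2.33e-07). The difference between the times was 0.07 ± 0.053 (edgeR FDR 0.379, 95% interval −0.04 to 0.17), and without replicate 2 of sorafenib for 48 hours it was 0.10 (FDR 0.0285). Between the DMSO groups Igf1r differed by −0.02 ± 0.038 (FDR 0.689). Per kilobase of exon, Igf1r was 1.49 ± 0.048 times the level of Insr with DMSO for 48 hours and 2.24 ± 0.098 times with DMSO for 7 days (SD, n = 4), and 1.54 ± 0.14 and 2.21 ± 0.029 times with sorafenib.

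Irs1 and Irs2, on chromosomes 1 (82210822 to 82269338) and 8 (11034681 to 11059499), are the adaptors that connect these receptors to PI3K. Irs1 had 1163, 1236, 1310 and 1236 normalised read counts with DMSO for 48 hours and 1838, 2060, 1829 and 1826 with sorafenib. At 7 days it had 1549, 1608, 1631 and 1567 with DMSO and 2605, 2519, 2433 and 2461 with sorafenib, the highest group. Its log2 fold change was nearly equal at the 2 times, 0.61 ± 0.045 (edgeR FDR 3.43e-10) and 0.66 ± 0.043 (FDR 6.37e-11), with a difference of 0.05 and a 95% interval of −0.08 to 0.17 (FDR 0.617).

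Irs2 rose at 48 hours, from 2110, 2102, 2292 and 2375 normalised read counts with DMSO to 3191, 3387, 3147 and 2962 with sorafenib. At 7 days the groups overlapped, with 2613, 2664, 2574 and 2487 with DMSO and 2759, 2799, 2683 and 2628 with sorafenib. The log2 fold change of Irs2 was 0.51 ± 0.045 at 48 hours (edgeR FDR 5.77e-09) and 0.07 ± 0.045 at 7 days (FDR 0.183). The 7-day value passed the threshold with only the 8 libraries of that time (0.07, FDR 0.0242) and without replicate 2 of sorafenib for 48 hours (0.07, FDR 0.0481). The difference between the responses, −0.44 ± 0.064, passed the threshold (edgeR FDR 1.39e-05). Within a library, Irs2 was 2.28 ± 0.12 times the level of Irs1 per kilobase of exon with DMSO for 48 hours, 2.13 ± 0.071 times with sorafenib for 48 hours, 2.06 ± 0.067 times with DMSO for 7 days and 1.38 ± 0.032 times with sorafenib for 7 days.

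**Figure D2:**
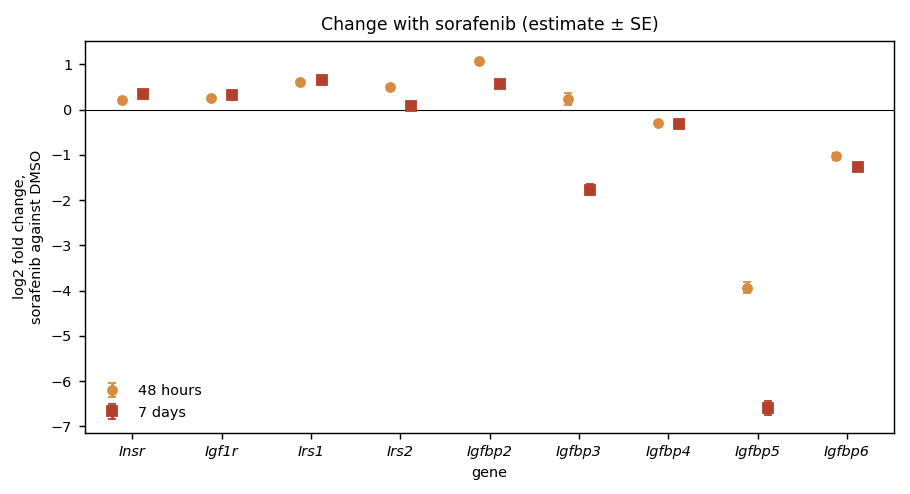
Log2 fold change of sorafenib against DMSO (y axis) for 9 genes (x axis) at 48 hours (circles) and 7 days (squares), with bars for the SE from edgeR, 4 libraries per group. The 4 receptor and substrate genes lie between 0.07 and 0.66, and Igfbp5 lies at −3.94 and −6.59.

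Igfbp5 encodes a binding protein that also sticks to the extracellular matrix. It had 1547, 1689, 1529 and 1869 counts with DMSO for 48 hours and 82, 80, 62 and 105 with sorafenib. At 7 days it had 1610, 1868, 2087 and 1695 counts with DMSO and 11, 27, 16 and 20 with sorafenib. In normalised read counts the means were 1538 ± 64.4 and 104 ± 29.8 (SD, n = 4) at 48 hours and 1679 ± 110 and 16.99 ± 4.54 at 7 days. The lowest 48-hour value with sorafenib, 59.0 in replicate 3, lay well under the other 3 (115 to 121) and above all 4 values at 7 days (12.4 to 21.9). Every library with sorafenib was thus far below every library with DMSO, and the 2 sorafenib groups did not overlap.

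The log2 fold change of Igfbp5 was −3.94 ± 0.12 at 48 hours (edgeR FDR 3.38e-16) and −6.59 ± 0.15 at 7 days (FDR 3.98e-18). Among genes with a mean of at least 100 normalised read counts in the DMSO libraries of the time, 28 of 10588 had a lower value at 48 hours and 14 of 10396 at 7 days. The fall deepened by −2.66 ± 0.25 between the times (edgeR FDR 5.34e-08). The DMSO groups overlapped and differed by 0.13 ± 0.085 (FDR 0.242), a difference that passed the threshold when only the 8 DMSO libraries were fitted (0.13, FDR 0.00382) and without replicate 2 of sorafenib for 48 hours (0.13, FDR 0.0262).

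Igfbp2, whose protein is among the main circulating IGF carriers in fetal life, moved the other way. Its normalised read counts were 1108, 947, 1139 and 1014 with DMSO for 48 hours and 2220, 2409, 2235 and 1995 with sorafenib. At 7 days they were 684, 718, 741 and 686 with DMSO and 1019, 1096, 1043 and 1005 with sorafenib. Drug and vehicle were apart at both times, but the 7-day sorafenib libraries overlapped those of DMSO for 48 hours. Its log2 fold change was 1.07 ± 0.059 (edgeR FDR 3.71e-12) and then 0.56 ± 0.062 (FDR 1.55e-07), a difference of −0.52 ± 0.085 (FDR 6.32e-05). Per kilobase of exon, the Igfbp2 level was 1.98 ± 0.16 times that of its neighbour Igfbp5 with DMSO for 48 hours and 67.8 ± 28.1 times with sorafenib, and 1.22 ± 0.072 and 186 ± 47.4 times at 7 days. These ratios depend on the length used for Igfbp2. Per kilobase of canonical transcript Igfbp2 and Igfbp5 stood at 797 and 256 with DMSO and 1678 and 17.2 with sorafenib at 48 hours. At 7 days the levels were 536 and 279.5 with DMSO and 788.5 and 2.83 with sorafenib.

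Igfbp3, the main IGF carrier of adult serum and a known target of p53, had the fewest counts of the genes tested. With DMSO for 48 hours it had 69, 89, 56 and 72 counts and with sorafenib 63, 57, 71 and 67. With DMSO for 7 days it had 140, 227, 228 and 216 counts and with sorafenib 47, 76, 56 and 55. The group with DMSO for 7 days was apart from all the other 3, at 186 ± 23.0 normalised read counts against 66.0 ± 8.56 with DMSO for 48 hours. At 48 hours the drug's log2 fold change of 0.24 ± 0.14 missed the threshold (edgeR FDR 0.14, 95% interval −0.02 to 0.51). At 7 days it was −1.77 ± 0.12 (FDR 7.51e-11), and the difference between the times was −2.01 ± 0.18 (FDR 2.9e-08). The DMSO groups themselves differed by 1.49 ± 0.11 (FDR 1.2e-09), so the 7-day comparison was made against a control level that was 2.81-fold that of 48 hours. The 7-day sorafenib values, 49.0 to 61.7, overlapped those with DMSO for 48 hours, 57.2 to 77.2.

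Igfbp4, on chromosome 11 from 98932064 to 98945218, encodes a binding protein that is mostly found to hold back IGF action and that the protease PAPP-A cuts. Its normalised read counts were 14017, 13948, 14179 and 14510 with DMSO for 48 hours and 11753, 12059, 11361 and 11300 with sorafenib. At 7 days they were 12292, 11166, 11698 and 11444 with DMSO and 9580, 9355, 9319 and 9369 with sorafenib. Its change was modest and alike at the 2 times, −0.29 ± 0.031 (edgeR FDR 1.35e-07) and −0.31 ± 0.031 (FDR 4.34e-08). The difference of −0.02 had a 95% interval of −0.11 to 0.06 (FDR 0.741), and its sign changed under several settings. DMSO for 7 days was lower than DMSO for 48 hours by a similar amount, −0.28 ± 0.031 (FDR 2.35e-07).

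Igfbp6, whose protein prefers IGF2 over IGF1, is on chromosome 15 from 102052697 to 102057953. Its normalised read counts were 963, 867, 881 and 884 with DMSO for 48 hours and 429, 339, 478 and 502 with sorafenib, with the lowest in replicate 2, whose counts on this chromosome were low. At 7 days they were 1536, 1558, 1637 and 1559 with DMSO and 670, 593, 650 and 709 with sorafenib. None of the 4 groups overlapped another. The log2 fold change was −1.03 ± 0.082 at 48 hours (edgeR FDR 1.19e-09) and −1.26 ± 0.075 at 7 days (FDR 1.04e-11). Without replicate 2 the 48-hour value was −0.93 (FDR 7.15e-20) and the group's mean 470 ± 37.0 (SD, n = 3) in place of 437 ± 72.1. The difference between the times missed the threshold with all libraries, −0.24 ± 0.11 (edgeR FDR 0.101), and passed it without replicate 2, −0.34 (FDR 0.000126), or with library sizes set from chromosomes 15 to 19 and X, −0.36 (FDR 0.0215).

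The difference between the responses at 7 days and at 48 hours passed the threshold for 4 of the 9 genes, Irs2, Igfbp2, Igfbp3 and Igfbp5, against 36.8% of all genes. Between DMSO for 7 days and DMSO for 48 hours, 4 of the 9 were higher (Irs1, Irs2, Igfbp3 and Igfbp6, against 23.9% of all genes) and 3 lower (Insr, Igfbp2 and Igfbp4, against 25.5%). Irs1 differed by 0.36 ± 0.045 (edgeR FDR 9.16e-07), Irs2 by 0.22 ± 0.045 (FDR 0.000394), Igfbp6 by 0.81 ± 0.073 (FDR 1.26e-08) and Igfbp2 by −0.57 ± 0.062 (FDR 1.72e-07). The comparisons share libraries, so their values for a gene are not independent of each other.

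Levels were compared between genes per kilobase of annotated exon. Igfbp4 was the most abundant in every group, at 3203 ± 56.7 normalised read counts per kilobase with DMSO for 48 hours and 2127 ± 26.7 with sorafenib for 7 days. With DMSO for 48 hours it was followed by Igfbp6 (651 ± 31.5), Igfbp2 (506 ± 42.5), Irs2 (301 ± 18.4), Igfbp5 (256 ± 10.7), Igf1r (166 ± 5.28), Irs1 (132 ± 6.41), Insr (112 ± 1.86) and Igfbp3 (18.5 ± 2.40), and no neighbours in this order overlapped. With sorafenib for 48 hours Igfbp2 (1065 ± 81.5) came second, Irs1 and Igf1r overlapped at 202 ± 12.2 and 200 ± 11.4, and Igfbp5 (17.2 ± 4.96) fell to the level of Igfbp3 (22.3 ± 2.699), with which it overlapped. With DMSO for 7 days Igfbp6 (1140 ± 31.9) was again second, while Irs2 overlapped Igfbp2 and Irs1 overlapped Igf1r. With sorafenib for 7 days Igfbp2 (501 ± 19.3) and Igfbp6 (475 ± 35.2) overlapped, and Igfbp5 was the lowest gene with counts, at 2.83 ± 0.76. Using the length of the canonical transcript in place of all exons changed this order. With DMSO for 48 hours Igfbp2 (797) came before Igfbp6 (737), Igf1r before Igfbp5 and Insr before Irs1. Igf1r (317) stood above Irs1 (202) with sorafenib for 48 hours. For DMSO at 7 days Igfbp2 (536) stood above Irs2 (351) and Igf1r (260) above Irs1 (170). Igfbp2 (788.5) stood above Igfbp6 (538) with sorafenib for 7 days. The overlaps of these pairs given above thus depended on the length used.

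Igfbp4 made up 69.1% ± 1.04 (SD, n = 4) of the summed binding-protein level per kilobase with DMSO for 48 hours, 64.9% ± 0.65 with sorafenib for 48 hours, 59.2% ± 1.27 with DMSO for 7 days and 68.2% ± 0.43 with sorafenib for 7 days. The share of Igfbp5 went from 5.53% ± 0.16 to 0.426% ± 0.12 at 48 hours and from 6.28% ± 0.26 to 0.0907% ± 0.025 at 7 days. That of Igfbp2 went from 10.9% ± 0.79 to 26.3% ± 1.37 and from 7.66% ± 0.34 to 16% ± 0.75. Per kilobase of canonical transcript the Igfbp2 share went from 14.5% to 32.8% and from 10.3% to 20.8%. The sum itself was 4503 to 4696 normalised read counts per kilobase with DMSO and 3920 to 4176 with sorafenib at 48 hours, and 4320 to 4555 and 3094 to 3159 at 7 days, with no overlap between drug and vehicle at either time.

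**Figure D3:**
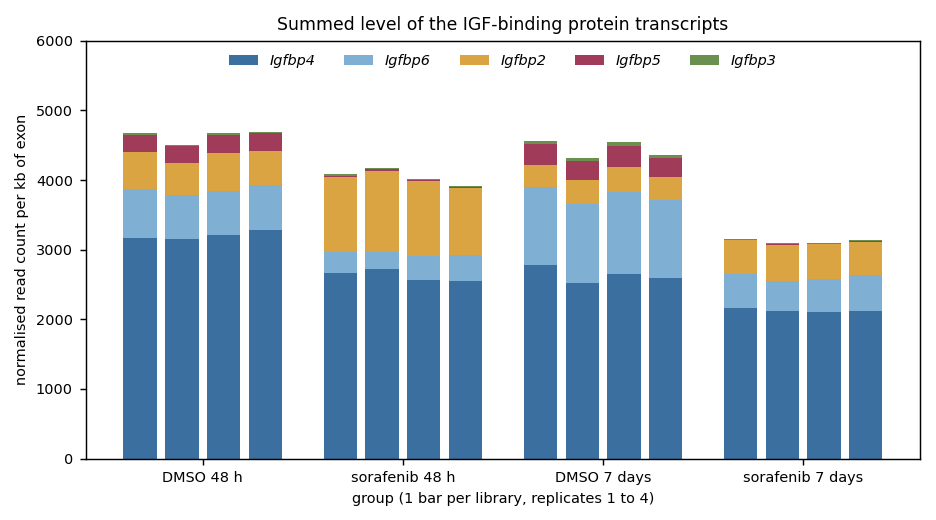
Normalised read counts per kilobase of exon (y axis) of the 5 detected binding-protein transcripts, stacked, with 1 bar per library and 4 libraries per group (x axis). Igfbp4 is the largest part of every bar, and the sum is lowest with sorafenib for 7 days, at 3094 to 3159.

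Further genes of the pathway were taken from 7 lists of 70 names, of which 69 were in the table and 63 had enough counts to be tested. At 48 hours 24 of the 63 were higher with sorafenib and 28 lower, and at 7 days 23 and 26. The share called, 82.5% and 77.8%, stood beside 54.6% and 56.8% of all genes, and the median log2 fold change was near 0 at both times. Of the 63, 60 had a mean of at least 10 normalised read counts, whereas all genes include those with as few as 10 counts in total. A comparison with genes of a like level was not made, so the shares of the lists and of all genes are not matched. The lists were also chosen with earlier results of these data known. These shares, and those of each list below, are thus descriptions and no test of enrichment. Without replicate 2 of sorafenib for 48 hours the counts were 25 and 28, and 25 and 27.

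Of the ligands, Igf2, the fetal growth factor, was abundant and fell. It ranged from 39009 to 43895 normalised read counts with DMSO and from 11181 to 12203 with sorafenib at 48 hours, a log2 fold change of −1.78 ± 0.044 (edgeR FDR 1.04e-17). At 7 days it ranged from 26744 to 29379 and from 2747 to 3052, a change of −3.27 ± 0.046 (FDR 3.28e-21), and the difference between the times was −1.49 ± 0.061 (FDR 2.04e-13). Igf1, the main growth hormone-dependent IGF, fell by 1.21 ± 0.11 on the log2 scale (edgeR FDR 1.47e-08) from a mean of 371 ± 9.85, and fell by 1.57 ± 0.15 at 7 days (FDR 1.15e-08) from 151 ± 29.0. The insulin gene Ins1 had 0 counts in every library and Ins2 at most 2. Both detected ligands thus fell at both times.

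The other receptors listed were Igf2r, which carries IGF2 to the lysosome for breakdown, and the insulin receptor-related receptor Insrr. Igf2r rose from a mean of 7169 ± 75.0 to 10163 ± 2020 normalised read counts at 48 hours (log2 fold change 0.50 ± 0.091, edgeR FDR 8.4e-05) and from 5184 ± 146 to 7663 ± 110 at 7 days (0.56 ± 0.092, FDR 2.39e-05). It lies on chromosome 17, where counts of replicate 2 were low, and without that library its 48-hour change was 0.64 ± 0.027 (FDR 1.43e-26). Insrr had at most 2 counts in a library.

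Of 8 genes for IGF carriers, IGFBP proteases and their inhibitors, 6 were tested. At 48 hours 3 were higher and 2 lower, and at 7 days 3 and 3. The share called was 83.3% and 100% of those tested, beside 54.6% and 56.8% of all genes. Htra1, a secreted serine protease that can cut IGF-binding proteins, rose from 319 ± 25.5 to 7824 ± 479 normalised read counts at 48 hours (log2 fold change 4.62 ± 0.065, edgeR FDR 6.61e-21) and from 446 ± 36.4 to 9973 ± 372 at 7 days (4.48 ± 0.063, FDR 3.1e-21). Pappa, which encodes the IGFBP4-cutting protease PAPP-A, fell from 573 ± 35.8 to 225 ± 27.6 (−1.37 ± 0.083, FDR 1.73e-11) and from 1019 ± 63.1 to 70.6 ± 9.85 (−3.85 ± 0.092, FDR 6.33e-18). Stc1, an inhibitor of PAPP-A, fell from 318 ± 35.1 to 33.5 ± 4.36 (−3.25 ± 0.13, FDR 3.49e-14) and from 286 ± 33.5 to 14.8 ± 3.11 (−4.25 ± 0.15, FDR 2.42e-15). Stc2, the other PAPP-A inhibitor gene, was named after its values were seen and rose by 1.32 ± 0.068 (FDR 1.2e-12) and 1.28 ± 0.067 (FDR 1.66e-12). Htra1 and Pappa, both genes of proteases, moved in opposite directions at both times. Pappa2 and Igfbp7, the rest of those tested, were also named after their values were seen. The protease gene Pappa2 was not called at 48 hours (−0.03 ± 0.073, FDR 0.775) and fell at 7 days (−3.19 ± 0.0995, FDR 3.92e-16). Igfbp7 rose by 1.72 ± 0.060 (FDR 2.85e-15) and 1.00 ± 0.058 (FDR 7.44e-12).

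Of 15 adaptors and receptor inhibitors, 6 were higher and 7 lower at 48 hours, and 7 higher and 4 lower at 7 days. The calls made up 86.7% and 73.3% of the list, beside 54.6% and 56.8% of all genes. They include 2 genes near the detection floor of 3 counts, named for their low counts. These are Grb7, lower at 48 hours, and Irs4, higher at 7 days, with means of 2.0 and 3.1 normalised read counts over the 16 libraries. Trib3, a pseudokinase that binds AKT and is induced by the integrated stress response, rose from 294 ± 14.6 to 5666 ± 320 normalised read counts (log2 fold change 4.27 ± 0.053, edgeR FDR 1.06e-21) and from 361 ± 23.7 to 4844 ± 129 (3.75 ± 0.052, FDR 2.4e-21). Grb14, an inhibitor of the insulin receptor kinase, rose by 2.30 ± 0.10 (FDR 8.83e-14) and 1.81 ± 0.10 (FDR 4.82e-12). Socs3, an inhibitor of cytokine and insulin receptor signalling, fell by 1.60 ± 0.078 (FDR 4.98e-13) and fell by 2.06 ± 0.082 (FDR 1.99e-14). The list thus held inhibitors that rose beside others that fell, among them the insulin receptor phosphatase gene Ptpn1, named after its values were seen (−0.18, FDR 0.000503, and −0.60, FDR 4.66e-11).

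Of 14 genes for PI3K, AKT and their phosphatases, 5 were higher and 5 lower at 48 hours, and 3 higher and 8 lower at 7 days. These were 71.4% and 78.6% of the list, beside 54.6% and 56.8% of all genes. Without replicate 2 of sorafenib for 48 hours, 6 were higher and 5 lower at 48 hours and 4 and 9 at 7 days, with Phlpp1, named because its call changed, called at 7 days (0.09, FDR 0.0368). The catalytic subunit gene Pik3cb rose by 1.54 ± 0.061 on the log2 scale at 48 hours (edgeR FDR 1.99e-14) and by 0.42 ± 0.057 at 7 days (FDR 2.38e-06). The regulatory subunit gene Pik3r3 fell by 1.31 ± 0.063 (FDR 4.77e-13) and fell by 1.70 ± 0.061 (FDR 3.93e-15). Pik3cd, another catalytic subunit gene, was higher at 48 hours (0.49 ± 0.077, FDR 1.5e-05) and lower at 7 days (−0.68 ± 0.075, FDR 1.54e-07), and the difference of −1.17 ± 0.11 passed the threshold (FDR 3.58e-08).

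Of 15 genes downstream of AKT, 5 were higher and 8 lower at 48 hours, and 5 and 7 at 7 days. This was 86.7% and 80% of the list, beside 54.6% and 56.8% of all genes. Without replicate 2 of sorafenib for 48 hours, Tsc2 on chromosome 17 was called at both times (0.17, FDR 4.17e-06, and 0.15, FDR 4.09e-06) and Rptor was not called at 48 hours (0.07, FDR 0.0696), which left 5 higher at 48 hours and 6 at 7 days. Both were named because their calls changed. The FOXO transcription factor gene Foxo4 fell by 1.33 ± 0.077 on the log2 scale (edgeR FDR 8.92e-12) and fell by 2.97 ± 0.081 (FDR 5.27e-17). It is on the X chromosome, and without replicate 2 its 48-hour change was −1.22 (FDR 2.66e-33). Foxo6 fell by 1.36 ± 0.066 (FDR 4.56e-13) and fell by 1.57 ± 0.069 (FDR 8.66e-14). Eif4ebp1, whose product represses translation until mTOR phosphorylates it, rose by 1.04 ± 0.049 (FDR 2.75e-13) and 0.99 ± 0.048 (FDR 5.4e-13).

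Of 11 known FOXO target genes in the table, 9 were tested, and 4 were higher and 4 lower at 48 hours and 4 and 2 at 7 days. The calls were 88.9% and 66.7% of those tested, beside 54.6% and 56.8% of all genes. Gadd45a, a growth arrest and stress response gene, rose by 3.66 ± 0.076 on the log2 scale (edgeR FDR 9.55e-19) and 3.40 ± 0.073 (FDR 1.41e-18). Klf15, a transcription factor of fasting metabolism, rose by 2.44 ± 0.15 (FDR 2.45e-11) and 2.31 ± 0.17 (FDR 2.47e-10). Ccng2, a cyclin-like gene of quiescent cells, fell by 2.21 ± 0.091 (FDR 3.42e-14) and fell by 1.33 ± 0.10 (FDR 4.49e-10). Of these 3, only Ccng2 had a difference between the times that passed the threshold (0.88 ± 0.14, edgeR FDR 3.42e-05).

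**Figure D4:**
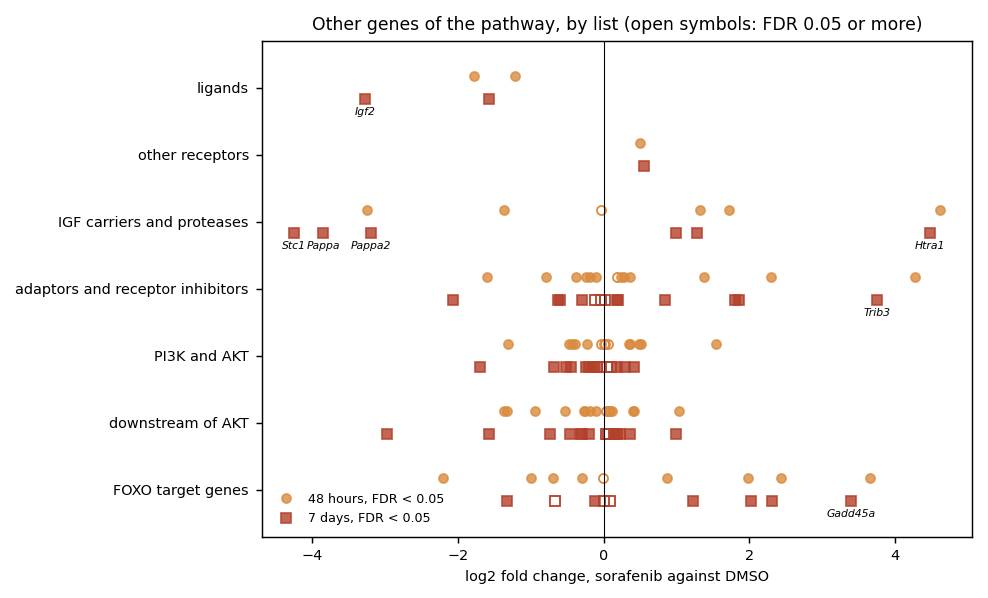
Log2 fold change of sorafenib against DMSO (x axis) for the 60 pathway genes with a mean of at least 10 normalised read counts, by list (y axis), at 48 hours (circles) and 7 days (squares). Filled symbols passed an edgeR FDR of 0.05 and open symbols did not. Both ligands lie left of 0, and most other lists have genes on either side.

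The pattern of Igfbp5 over the 16 libraries was most like those of Atp1b1, Rdh11 and Idi1 among 10646 genes with a mean of at least 100 normalised read counts, with Pearson's r of log2 values of 0.997, 0.995 and 0.995. The libraries of a group share their treatment, so these r describe mainly the order and spacing of the 4 groups. Idi1, an enzyme of isoprenoid and cholesterol synthesis, had means of 866 ± 54.5 and 311 ± 17.99 at 48 hours and 921 ± 18.6 and 163 ± 8.34 at 7 days. Atp1b1, a subunit of the sodium pump, fell by 1.08 on the log2 scale at 48 hours (edgeR FDR 2.86e-16) and fell by 1.88 at 7 days (FDR 9.1e-20), and the retinol dehydrogenase gene Rdh11 fell by 0.93 (FDR 5.06e-13) and fell by 1.64 (FDR 9.33e-17). Their changes were smaller than those of Igfbp5.

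Some of the 10 genes overlap others on the opposite strand, and the strand setting of the counting is not given in the sources used here. Igf1r also overlaps the lncRNA gene Gm73244 on its own strand, over 38511 bases. This gene and most others that overlap the 10 are not in the count table, so they could not be checked. The overlapping genes in the table had few counts. Pgpep1l, across from Igf1r, had at most 10, the lncRNA gene Gm36565, across from Igfbp3, at most 1, and 9530052E02Rik, across from Irs2, at most 14.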

How the data were processed

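Total RNA of p53−/−; Myc hepatoblasts was sequenced by the authors on a NovaSeq after library preparation with a stranded Illumina mRNA kit. Per the labels, STAR 2.7.1a, featureCounts 2.0.6 and DESeq2 1.40.2 were used with GRCm39. The annotation and the strand setting are not given in the sources used here. The deposited values are whole-number read counts per gene for 16 libraries, with no normalization, and every column was assigned to a sample by its label.

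Genes with at least 10 counts in total (20444 of 40840) were tested with edgeR 4.0.16 in R 4.3.3, by its quasi-likelihood test after TMM scaling, in 1 model with a coefficient per group and no block. P-values were adjusted by Benjamini-Hochberg over all genes tested and called at an FDR under 0.05. Intervals are the estimate ± 1.96 SE. The script was tested on simulated data. Levels per kilobase used all annotated exons of GENCODE vM39 joined. Libraries of 16586254 to 30828427 counts put 3 counts, taken as the detection floor, at 2.44 to 4.54 normalised read counts, which covers counting error only.

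The 10 genes, the pathway lists and the markers were chosen with earlier results of these data known. Named were the 10 genes, all ligands and other receptors, in each other list the 3 genes with the largest change at either time among those called with a mean of at least 100 normalised read counts, and the 3 genes most like Igfbp5, which had the largest change of the 10 at both times. Alternatives were DESeq2 1.42.0, other scalings and filters, an added fold change threshold, a replicate block, fewer libraries and each library left out. The alternative per canonical transcript and the pathway counts without 1 library were added after seeing the data. A planned marker gene is not reported here.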

Additional observations from a re-analysis of the deposited data

Results flagged for a closer look

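In 3 of 36 sets of 4 libraries (9 genes in 4 groups), 1 library lay far from the other 3 by Dixon's test, which chance does in about 1 of 20 sets. Irs1 in replicate 2 of sorafenib for 48 hours had 2060 normalised read counts, above the other 3 (1826 to 1838), in the library whose counts on chromosomes 15 to 19 and X were low. Igfbp3 in replicate 1 of DMSO for 7 days had 151 normalised read counts, below the other 3 (195 to 200). Igfbp5 in replicate 3 of sorafenib for 48 hours had 59.0, below the other 3 (115 to 121). Without these libraries Irs1, Igfbp3 and Igfbp5 kept the calls given above for the comparison of drug and vehicle at that time.

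The response to sorafenib differed between 7 days and 48 hours, by edgeR's test of the difference itself, for 4 genes. The log2 fold change at 7 days minus that at 48 hours was −0.44 for Irs2 and −0.52 for Igfbp2. The rise of Igfbp2 was smaller at 7 days, and Irs2 had no called change then. It was −2.01 for Igfbp3, which passed the threshold at 7 days alone, and −2.66 for Igfbp5, whose fall was deeper at 7 days.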

How the results depend on the processing

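Of 859 values of the 9 genes under the alternatives, 814 kept their direction and their side of the threshold. Another 21 were called under an alternative though not in the main fit. Among them was the difference between the responses of Insr by edgeR with DESeq2's size factors (0.15, FDR 0.0323). It was also called with total counts only (0.23, FDR 0.00343) and at least 10 counts in every library (0.20, FDR 0.00233). The 18 called values that were lost were all lost to the added threshold of 1 on the absolute log2 fold change. With that threshold 1 gene was higher and 2 were lower (Igfbp5 and Igfbp6) at 48 hours. At 7 days 0 were higher and 3 lower (Igfbp3, Igfbp5 and Igfbp6). Further, 2 differed between the responses (Igfbp3 and Igfbp5) and 1 (Igfbp3) between the DMSO groups. Over all genes 1806 were higher and 1884 lower at 48 hours, and 2479 and 1723 at 7 days. Of all genes 1965 differed between the responses and 2242 between the DMSO groups. The 6 values with another sign were all of the difference between the responses of Igfbp4, −0.02 with all libraries, which was 0.0699 with total counts only, 0.0427 with at least 10 counts in every library, and from −0.0427 to 0.0135 with 1 library left out.

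The share of Igfbp4 in the binding-protein level was 79.9%, 80.4%, 73.8% and 84.2% in normalised counts not divided by length (DMSO and sorafenib for 48 hours, then for 7 days), and 67.1%, 59.2%, 58.3% and 64.5% per kilobase of the canonical transcript. Whether the replicate numbers pair the libraries could not be settled. Deviations of same-numbered libraries correlated only weakly, from −0.05 to 0.0144 at 48 hours and from −0.00564 to 0.128 at 7 days. At these times 1 and 3 of 8 libraries correlated best with their own number. With a replicate block, 8 of the 9 genes differed between the DMSO groups in place of 7, Igfbp5 being added (0.13, FDR 0.00232), and the other counts of these genes were 5, 3, 4, 4 and 4 as without it. A shift in library scaling moved the median of all genes by under 0.1 on the log2 scale, which is of the order of the changes between the times for Insr, Igf1r and Igfbp4. The depth put Igfbp5 with sorafenib for 7 days at 11 to 27 counts, so that its fold is less precise than those of the other genes.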
